A study of Homo sapiens with 4 samples.

Results

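Assembled transcripts are RNA models built from the reads of a library rather than taken from an annotation. Members here are the rows that carry no Ensembl transcript identifier in any of the 4 libraries (they are named PREDICTED) and that lie above 0 FPKM in at least 1 library, a unit that counts fragments relative to transcript length and to the mapped total. There were 206529 such transcripts among 393483 rows in all. A further 1363 rows without an Ensembl identifier were at 0 in every library and were left out. The transcripts came from WI-38, an established human fibroblast line from fetal lung whose cells divide a limited number of times. The 4 groups, with 1 library each, were young cells at a population doubling level of 21 and senescent cells at a level of 60, each as whole cells and as mitoplasts; no other treatment or genotype is given. A mitoplast is a mitochondrion without its outer membrane, and this fraction was prepared with detergent lysis, swelling and RNase A digestion, per the labels' protocols. With 1 library in each group, no difference below has a replicate check, no p-value is given, and a difference between libraries cannot be told apart from a difference between conditions.

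Reference-guided assemblers join overlapping reads into exon chains and compare each chain with known transcripts. A chain that shares a locus with a known gene is often an unannotated isoform, with another start, end or exon junction. A chain far from any gene can come from an unannotated noncoding RNA, a pseudogene, a repeat, or stray reads that met the assembler's minimum. Inside mitochondria, transcription of the small circular genome yields long polycistronic RNAs that are cut into mRNAs, rRNAs and tRNAs, so an assembler can report a whole stretch of that genome as a single transcript. The files hold no coordinates, lengths or sequences of the assembled transcripts, so their position and letters are not given here. FPKM divides by length, and values of different transcripts are levels per length.

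The members split into 14416 that shared a locus with an annotated gene in at least 1 library and 192113 that shared a locus with no annotated transcript in any library. These are called gene-locus and gene-free-locus transcripts, by what the assembled locus held and not by genome position. Members were chosen by an FPKM above 0, so counts of presence and levels are descriptions. The lowest members above 0 stood at 0.00388 FPKM in young whole cells, 0.00432 in the senescent whole-cell library, 0.00867 in young mitoplasts and 0.00489 in senescent mitoplasts; just outside the rule lay the rows at 0. A member with a value of 0 in a library was nearly always one that the library did not list at all: listed rows at 0 numbered 428, 604, 651 and 270 in the same order. A value of 0 is therefore written below as not listed, unless the row was listed at 0.

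All 10 fibroblast markers checked were at 1 FPKM or more in both whole-cell libraries, 9 in young mitoplasts and 8 in senescent mitoplasts, where VIM and S100A4 were at 0. Their summed FPKM was 7078, 3676, 5430 and 925 in young whole cells, senescent whole cells, young mitoplasts and senescent mitoplasts. Of 6 blood and immune markers, 0 reached 1 FPKM in 3 libraries and 1 did in young mitoplasts. Of 6 epithelial markers 3, 3, 4 and 2 reached that level, with summed FPKM between 22.7 and 26.6. Of 3 endothelial markers, 1 reached it in senescent mitoplasts and 0 elsewhere. Their part in the results below was not tested.

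Most assembled transcripts were found in a single library. Young whole cells held 86633 above 0, senescent whole cells 99563, young mitoplasts 32046 and senescent mitoplasts 8645. Of the 206529 members, 188500 (91.3%) were above 0 in 1 library, 15960 in 2, 1809 in 3 and 260 (0.126%) in all 4. Leaving out senescent mitoplasts, 1734 were above 0 in every remaining library, and leaving out young mitoplasts 453; leaving out senescent whole cells, 119999 were in a single library. Annotated transcripts were shared far more widely: of 55421 above 0 in a library, 46.2% were in 1 library and 6.97% in all 4. Gene-locus transcripts lay between, with 79.8% in 1 library and 0.853% in all 4, against 92.1% and 0.0713% of gene-free-locus transcripts. Detection depends on sequencing depth, which the files do not give, so the numbers cannot be set down to the cells alone.

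**Figure D1:**
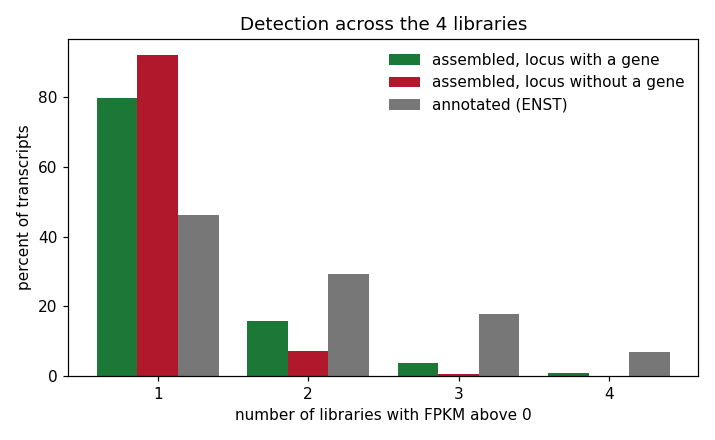
Bars give the percent of transcripts (y axis) above 0 FPKM in 1, 2, 3 or 4 libraries (x axis), for assembled transcripts in loci with an annotated gene, assembled transcripts in loci without one, and annotated transcripts. In 1 library the bars stand at 79.8%, 92.1% and 46.2%.

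Few members were in both fractions or at both ages. Of the members, 166585 (80.7%) were seen in whole cells only, 35601 (17.2%) in mitoplasts only and 4343 (2.10%) in both fractions; 32.5% of annotated transcripts were in both. By age of the culture, 99072 (48.0%) were in young libraries only, 90585 (43.9%) in senescent ones only and 16872 (8.17%) in both, against 49.7% of annotated transcripts. The pair of whole-cell libraries had 15268 members in common, 17.6% of those in young and 15.3% of those in senescent cells. These common members held 19.1% and 14.6% of the assembled FPKM of the 2 libraries. The pair of mitoplast libraries had 747 in common, 2.33% of the young and 8.64% of the senescent list. These 747 held 16.9% and 26.3% of the assembled FPKM, a share above their share of the list in each library. Across fractions the young pair had 2735 in common, 3.16% of the whole-cell and 8.53% of the mitoplast list, and the senescent pair 751 (0.754% and 8.69%). Young mitoplasts thus had more members in common with young whole cells than with senescent mitoplasts, lists of very different size. For gene-locus transcripts the whole-cell pair had 1873 in common (29.2% of the young and 30.4% of the senescent list) and the mitoplast pair 403 (10.3% and 25.1%).

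The summed FPKM of assembled transcripts was 1317989 in young whole cells, 3099121 in the senescent whole-cell library, 22636178 in young mitoplasts and 25734794 in senescent mitoplasts, rising with each step of that order. The corresponding sums of annotated transcripts were 1138313, 968870, 1792984 and 719438, with no such order. Almost the entire difference lay in loci without a gene, where the sums were 1245366, 3024631, 22580457 and 25667148 FPKM. Gene-locus transcripts summed to 72623, 74490, 55722 and 67646 FPKM, a narrower range. Without its highest gene-locus transcript each library summed to 66212, 55814, 42100 and 19133 FPKM, so the senescent mitoplast sum rests mostly on 1 row. As a share of all FPKM in a library, gene-locus transcripts were 2.96% and 1.83% in the whole-cell libraries, and 0.228% and 0.256% in the mitoplast libraries. Counting a locus only where its gene was above 0 in that library gave 0.970% in senescent whole cells and 0.118% in young mitoplasts.

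The 2 classes also had different levels. The median gene-locus transcript above 0 was at 2.32, 2.27, 2.42 and 2.72 FPKM in young whole cells, senescent whole cells, young mitoplasts and senescent mitoplasts. Annotated transcripts had medians of 2.02, 2.05, 2.96 and 4.97. Gene-free-locus transcripts had medians of 2.83, 8.34, 312 and 1126 FPKM, so the young whole-cell value was near that of the gene-locus class and the senescent mitoplast value far above it. Members at 1000 FPKM or more numbered 32, 56, 2675 and 4082, and of these 27, 51, 2672 and 4077 were in loci without a gene. Annotated transcripts at that level numbered 96, 82, 82 and 37.

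**Figure D2:**
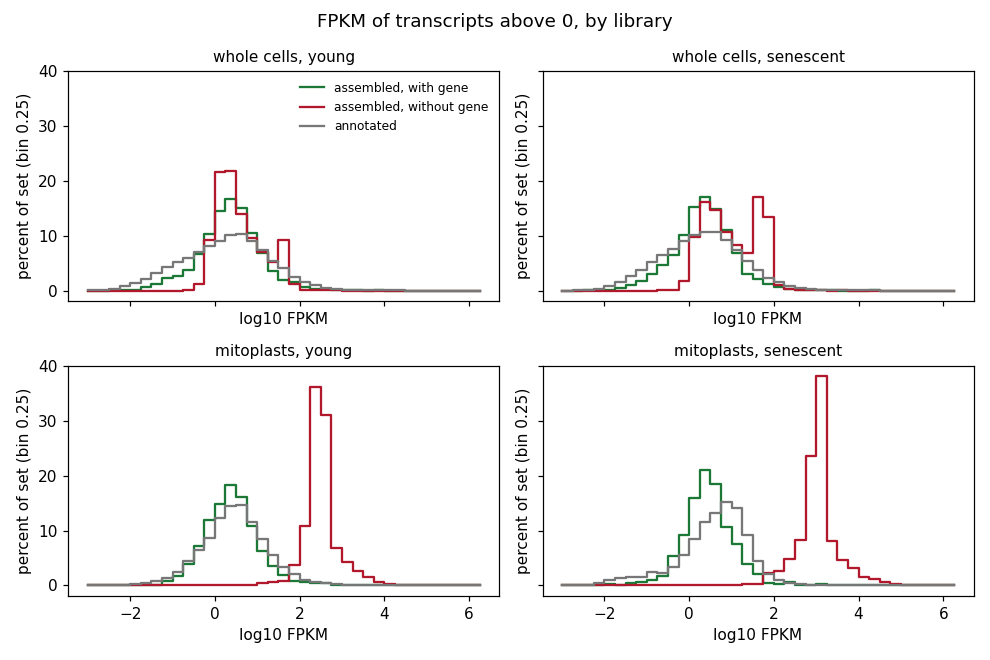
Each panel is 1 library and shows the percent of transcripts (y axis) per bin of 0.25 log10 FPKM (x axis), for values above 0. The curves of assembled transcripts with a gene stay near a median of 2.27 to 2.72 FPKM in every library, while those without a gene move to 312 FPKM in young and 1126 FPKM in senescent mitoplasts.

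A large part of the FPKM values of assembled transcripts recurred exactly. In young whole cells 54.3% of members shared their exact value with another member, in senescent whole cells 66.1%, in young mitoplasts 80.9% and in senescent mitoplasts 59.8%. The commonest shared values lay on a ladder of whole multiples, within 0.001 of a step, of 8.18 FPKM in young whole cells, 9.54 in the senescent whole-cell library, 14.9 in young mitoplasts and 14.1 in senescent mitoplasts. Members on the ladder made up 5.95%, 19.8%, 56.9% and 51.3% of the members of the 4 libraries. Of gene-free-locus transcripts 6.42%, 21.1%, 64.8% and 63.0% were on it, of gene-locus transcripts 0.0311%, 0.0973%, 0.154% and 0.187%, and of annotated transcripts 0.0928%, 0.0618%, 0.0712% and 0.0763%. Nearly all ladder members shared their value (99.7%, 99.8%, 99.9% and 99.7%), but the ladder held 10.9%, 29.9%, 70.3% and 85.6% of the members that shared a value, so most shared values in whole cells lay off it. The files do not say what a step stands for.

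The ladder began at the same rung in each library. Members on it at fewer than 5 steps numbered 21, 46, 11 and 4, whereas 3458, 10392, 352 and 42 lay at exactly 5 steps. In the whole-cell libraries 5 steps was the commonest rung and the median, and it held 67.1% of the ladder in young and 52.7% in senescent cells. In young mitoplasts the commonest rung was 17 and the median 19 steps, with the middle 50% between 14 and 24. In senescent mitoplasts the commonest rung was 75 and the median 71, with the middle 50% between 46 and 93. Ladder members held 17.4% of assembled FPKM in young whole cells, 35.3% in the senescent whole-cell library, 22.7% in young mitoplasts and 16.8% in senescent mitoplasts.

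**Figure D3:**
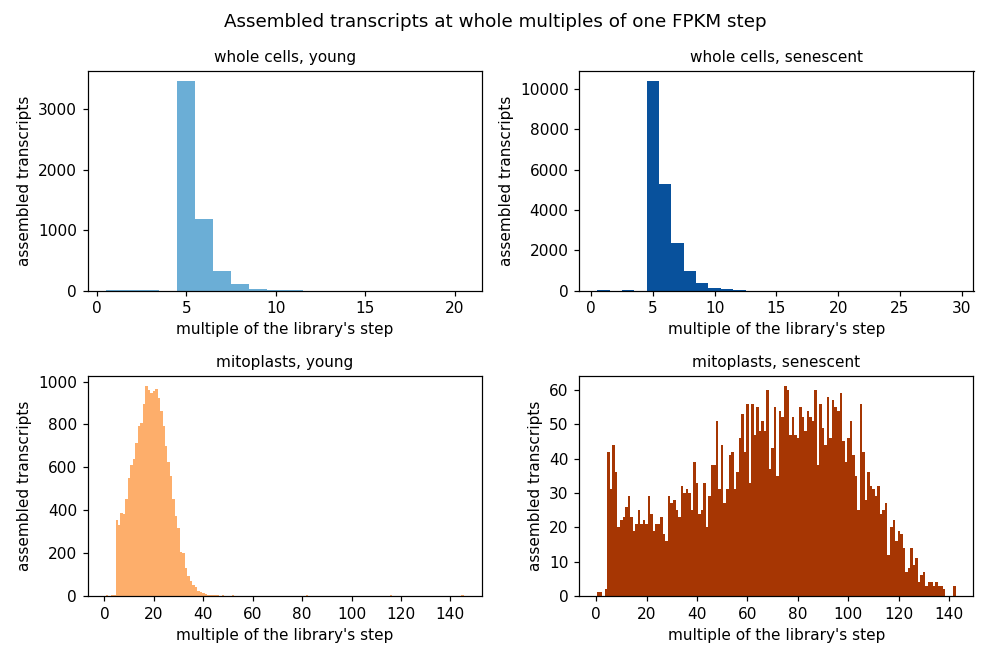
Each panel counts the assembled transcripts of 1 library (y axis) by the number of steps in their FPKM (x axis, whole multiples of 8.18, 9.54, 14.9 and 14.1 FPKM); 0, 1, 12 and 9 transcripts above 150 steps are not drawn. The whole-cell panels peak at 5 steps, young mitoplasts at 17 and senescent mitoplasts at 75.

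Transcripts on the ladder recurred between libraries less often than the other members. Of ladder members 1.16%, 5.94%, 9.87% and 9.74% were also above 0 in another library, and of the remaining members 20.1%, 19.2%, 16.9% and 20.7%. Off the ladder, gene-free-locus transcripts had medians of 2.59, 4.94, 498 and 1824 FPKM, so the higher level in mitoplasts was present there too. Leaving out all ladder members, assembled transcripts held 48.9%, 67.4%, 90.7% and 96.7% of the summed FPKM, compared with 53.7%, 76.2%, 92.7% and 97.3% with them.

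The assembled FPKM had a few very high transcripts above a long tail. By the number of transcripts that held 50%, it was less concentrated than annotated FPKM in every library. The highest transcript held 13.06% of it in young whole cells, 7.73% in the senescent whole-cell library, 6.20% in young mitoplasts and 7.35% in senescent mitoplasts. The 10 highest held 32.7%, 20.9%, 21.5% and 26.5%, and the 1000 highest 45.9%, 33.4%, 53.3% and 76.2%. To reach 50% of the assembled FPKM took 2012, 7849, 731 and 97 transcripts, or 2.32%, 7.88%, 2.28% and 1.12% of those above 0. For annotated FPKM 50% was held by 67, 69, 8 and 7 transcripts. The highest annotated transcript held 8.71%, 9.53%, 12.7% and 9.77% of annotated FPKM and the 10 highest 31.3%, 31.2%, 55.6% and 61.7%, below the assembled shares in young whole cells and above them in the other 3 libraries. Reaching 90% took 26775, 36346, 16071 and 3306 assembled transcripts. Without its highest transcript, young whole cells needed 3843 transcripts to reach 50%, so that number rests in part on 1 row.

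**Figure D4:**
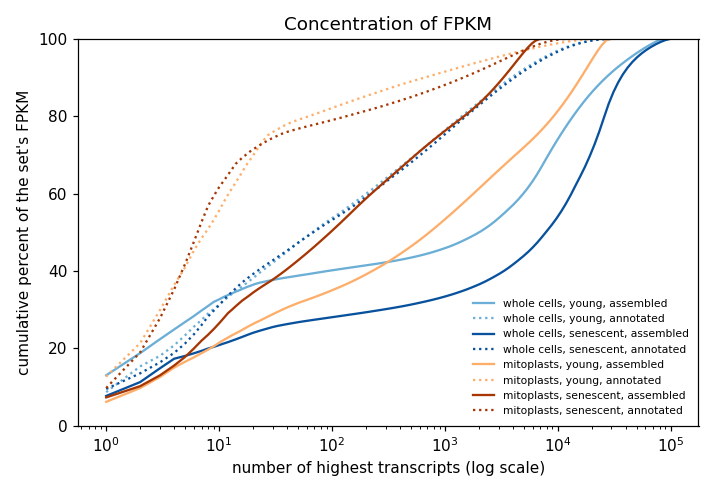
The cumulative percent of FPKM (y axis) is drawn against the number of highest transcripts (x axis, log scale) for assembled transcripts (solid) and annotated transcripts (dotted) of each library. Among the solid lines senescent mitoplasts cross 50% first, at 97 transcripts, and senescent whole cells last, at 7849.

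Of the 10 highest members of each library, 1 had an annotated gene in its locus, a transcript of the mitochondrial genome in senescent whole cells. ConsTrans_00183719 led young whole cells with 172177 FPKM and was listed in no other library. The next identifiers, ConsTrans_00183720 and ConsTrans_00183721, were above 0 in every library. ConsTrans_00185493 led the other 3 libraries, with 239499 FPKM in senescent whole cells, 1403903 in young mitoplasts and 1891146 in senescent mitoplasts, and was not listed in young whole cells. ConsTrans_00142542 had 649656 FPKM in young and 722588 in senescent mitoplasts and was not listed in either whole-cell library. The next rows of the young mitoplast library included ConsTrans_00143431 at 806179 FPKM, which no other library listed. ConsTrans_00345054, at 748321 FPKM in senescent mitoplasts, was also listed nowhere else. In senescent whole cells ConsTrans_00159735 and ConsTrans_00213110 had the same value of 110947 FPKM, an exact recurrence far above the usual rungs.

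Identifiers of annotated transcripts followed the order of chromosomes, so a chromosome was read from that order, as none is printed. Where the nearest annotated identifiers on both sides lay on 1 chromosome, that chromosome was taken. For annotated transcripts with such neighbours it was right for 99.98%, and for assembled transcripts it could not be checked. By this reading ConsTrans_00183719 and ConsTrans_00185493 lay on chromosome 19, ConsTrans_00142542 and ConsTrans_00143431 on chromosome 16, and ConsTrans_00159735 on chromosome 17. The reading covered at least 99.8% of members in 3 libraries and 29.2% of those of senescent mitoplasts, so no shares by chromosome are given.

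The 260 members above 0 in all 4 libraries comprised 123 in gene loci and 137 in loci without a gene. They held 13.4% of assembled FPKM in young whole cells, 6.07% in the senescent whole-cell library, 3.79% in young mitoplasts and 6.13% in senescent mitoplasts. Over the 4 libraries in that order, the 123 gene-locus transcripts had medians of 4.73, 5.36, 3.91 and 2.60 FPKM and the 137 others 3.20, 5.48, 342 and 1225. In this set gene-free-locus transcripts had the higher median in both mitoplast libraries, nearly the same one in senescent whole cells and the lower one in young whole cells.

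The member of this set with the highest lowest value was ConsTrans_00084023, at 75588 FPKM in young whole cells, 76077 in the senescent whole-cell library, 205965 in young mitoplasts and 72710 in senescent mitoplasts. Its whole-cell values were close to each other and young mitoplasts stood apart. ConsTrans_00293267 was at 20534, 9142, 102540 and 75620 FPKM in the same order, higher in each mitoplast library than in either whole-cell library. ConsTrans_00021337 was at 8219, 22485, 46122 and 127860 FPKM, with the senescent library the higher of each fraction. ConsTrans_00206094 was at 14044, 4989, 38363 and 132393 FPKM, lower in senescent than in young whole cells and higher in senescent than in young mitoplasts. ConsTrans_00183721 was at 4057, 13473, 104607 and 223582 FPKM, and its mitoplast values were both above its whole-cell values. With an equal sum over all transcripts, the log2 ratio of young mitoplasts to young whole cells turned from 1.45 to −1.87 for ConsTrans_00084023, from 2.32 to −0.99 for ConsTrans_00293267, from 2.49 to −0.83 for ConsTrans_00021337 and from 1.45 to −1.86 for ConsTrans_00206094. That of ConsTrans_00183721 kept its sign. Identifiers of several of the highest members were adjacent, as with ConsTrans_00206094 to ConsTrans_00206097 and ConsTrans_00183718 to ConsTrans_00183721, which places those rows next to each other in the merged set.

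Ratios were log2((A + 1)/(B + 1)) with A and B in FPKM, a scale that compresses the change of low transcripts, over transcripts at 1 FPKM or more in a library of the pair. A transcript counts as higher or lower past a log2 ratio of 1 between senescent and young, or of 2 between fractions. In bulk RNA, fewer cells with a transcript and less of it per cell cannot be told apart. Comparisons below share libraries, so each is given by its own values.

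In senescent against young whole cells, 87877 of 159677 assembled transcripts were higher and 63646 lower, beside 50.5% higher and 37.9% lower among all transcripts compared. Of these assembled transcripts 90.7% had a value of 0 in 1 of the 2 libraries, so the counts mainly restate presence. Among 14901 members above 0 in both, 6382 were higher and 365 lower, and their median was 0.74, beside 25.2% higher and 8.73% lower of all transcripts. Gene-locus transcripts in that set had 155 higher and 175 lower of 1564, with a median of 0.04, and annotated transcripts a median of −0.10. Gene-free-locus transcripts had 6227 higher and 190 lower of 13337, with a median of 0.87. Rescaled to an equal sum over all transcripts, the assembled split was 4677 higher and 1017 lower. The gene-free-locus median was 0.33, still above 0, and the gene-locus median turned to −0.49, with 56 higher and 372 lower. Among all transcripts 5340 were then higher and 6837 lower of 32667, and annotated ones had a median of −0.64.

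In senescent against young mitoplasts, 7989 of 38753 assembled transcripts were higher and 30494 lower, beside 23.6% and 72.4% of all transcripts. Here 98.1% had a value of 0 in 1 library. Of 720 above 0 in both, 330 were higher and 120 lower, beside 20.5% and 37.4%. Gene-locus transcripts had 61 higher and 106 lower of 376 (median −0.19), and gene-free-locus transcripts 269 higher and 14 lower of 344 (median 2.15). The assembled split was 478 and 29 after rescaling to an equal sum over annotated transcripts, 473 and 51 by the median of ratios and 271 and 54 over all transcripts. The first 2 of these turned the gene-locus median to 0.75 and 0.70, with 162 higher and 27 lower and 164 and 49. The gene-free-locus median stayed above 0 in all 3. With the first 2, all 5963 transcripts compared had 2448 higher and 926 lower, and 2390 and 1191. Annotated transcripts had medians of 0.48 and 0.37 with them. Rescaled over all transcripts, the 5963 had 462 higher and 1079 lower.

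In young mitoplasts against young whole cells, 29325 of 105161 were higher and 40083 lower, beside 25.3% and 35.2% of all transcripts, and 97.5% had a value of 0 in 1 library. Of 2643 above 0 in both, 1853 were higher and 44 lower, beside 14.8% and 7.92%. The 2 classes separated here: 1837 of 1894 gene-free-locus transcripts were higher and 2 lower (median 6.28), and 16 of 749 gene-locus transcripts were higher and 42 lower (median −0.23). Annotated transcripts had a median of −0.25. Rescaled over all transcripts, the assembled split was 1426 and 382 and the gene-free-locus median 3.02. Gene-locus transcripts had 4 higher and 355 lower (median −1.94), beside 1437 and 7091 of 14346 for all transcripts. Annotated ones then had a median of −2.22. By the median of ratios gene-locus transcripts had 28 higher and 24 lower, beside 2354 and 849 for all transcripts. The gene-locus median turned to 0.05.

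In senescent mitoplasts against senescent whole cells, 7623 of 103797 were higher and 71026 lower, beside 9.6% and 62.9% of all transcripts, and 99.3% had a value of 0 in 1 library. Of 729 above 0 in both, 439 were higher and 38 lower, beside 12.2% and 22.7%. Gene-free-locus transcripts had 430 higher and 0 lower of 444 (median 7.41), and gene-locus transcripts 9 higher and 38 lower of 285 (median −0.65). Rescaled over all transcripts, the assembled split was 368 and 117 and the gene-free-locus median 4.56. Gene-locus transcripts then had 1 higher and 114 lower, beside 378 and 3122 of 6426 for all transcripts. By the median of ratios gene-locus transcripts had 37 higher and 10 lower, beside 1415 and 664 for all transcripts. The gene-locus median turned to 0.51. The 3 rescalings moved the median of annotated transcripts above 0 in both libraries from −1.02 to −0.71, −2.11 and 0.08 in this pair, and from −0.25 to −0.74, −2.22 and 0.04 in the young pair.

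**Figure D5:**
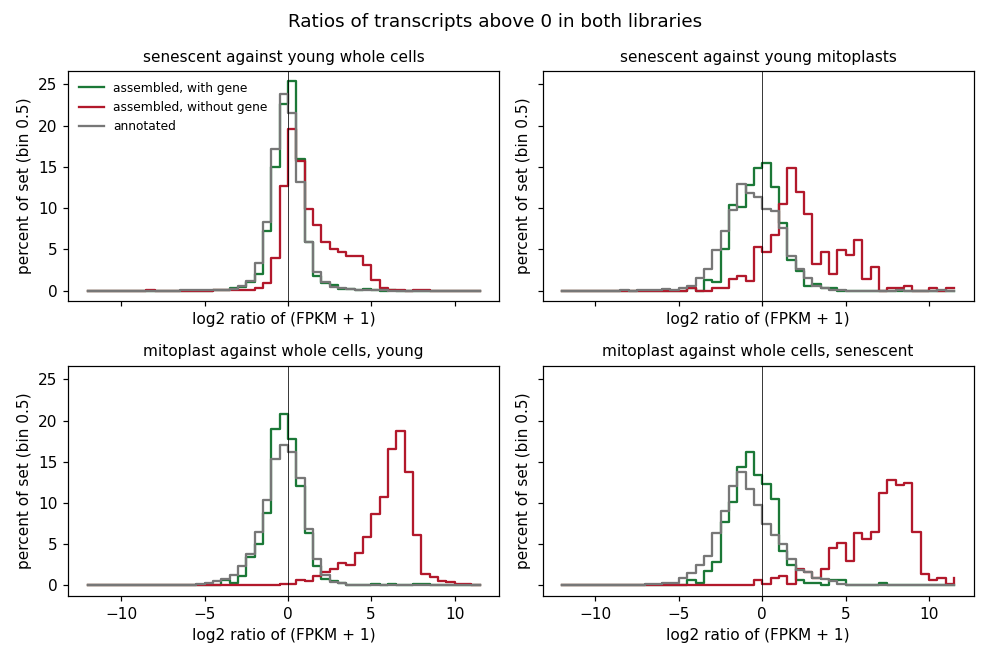
Each panel is 1 comparison and shows the percent of transcripts (y axis) per bin of 0.5 in log2 ratio (x axis), over transcripts above 0 in both libraries and at 1 FPKM or more in one of them; values beyond the axis are in the end bins. Transcripts in loci with a gene have medians of 0.04, −0.19, −0.23 and −0.65, and annotated ones −0.10, −0.59, −0.25 and −1.02. Those without a gene have medians of 0.87, 2.15, 6.28 and 7.41.

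Gene-locus transcripts belonged mostly to protein-coding genes. They lay in 5112 loci in young whole cells, 4950 in the senescent whole-cell library, 3570 in young mitoplasts and 1535 in senescent mitoplasts. Between 87.8% and 88.7% of these loci held 1 annotated gene, and a coding gene was present in 87.3%, 89.1%, 93.4% and 95.05%. The assembled transcripts held over 50% of the locus FPKM in 47.9%, 47.5%, 51.9% and 70.5% of the loci. All annotated transcripts of the locus were at 0 in 21.1%, 21.6%, 32.2% and 59.3%, the highest share in senescent mitoplasts. Over loci of 1 gene, 7263 genes had an assembled transcript above 0 in a library, of which 44.9% in 1 library and 420 (5.78%) in all 4. Of those 420 genes, 28 had every annotated transcript at 0 in all 4 libraries, so that the assembled transcript was their entire value.

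Actin regulators were among those 28. PFN1, encoding profilin, which binds actin monomers, had 435 FPKM of assembled transcripts in young whole cells, 319 in the senescent whole-cell library, 1831 in young mitoplasts and 215 in senescent mitoplasts. CFL1, encoding cofilin, which severs actin filaments, had 133, 155, 107 and 37.5 FPKM. EIF2B5, encoding a subunit of the exchange factor of translation initiation, had 354, 277, 373 and 100.02 FPKM. METTL3, the catalytic subunit of the RNA methyltransferase that makes N6-methyladenosine, had 19.04, 10.9, 6.65 and 6.61. These levels were lowest in senescent mitoplasts for each of these 4 genes, and young mitoplasts were highest for PFN1 and EIF2B5.

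The highest gene-locus transcripts differed between libraries; those named next were chosen after their values were seen. In young whole cells the leading one was in LTBP1, which encodes a matrix protein that holds latent TGF-beta, at 6411 FPKM, and it was listed in no other library. TLN2, encoding a talin that links integrins to actin, followed with 2318 FPKM, also in that library alone. In senescent whole cells 2 transcripts in MEG3, an imprinted noncoding RNA, had 2120 and 941 FPKM, and 2 in GREM1, encoding a secreted antagonist of bone morphogenetic proteins, had 993 and 735; neither pair was listed elsewhere. In young mitoplasts a transcript in FGF22, encoding a fibroblast growth factor, had 13621 FPKM and one in ACTB, encoding beta-actin, 2353, both in that library alone. In senescent mitoplasts a transcript in INPPL1, encoding an inositol phosphatase, had 924 FPKM and was not listed elsewhere. Above it there stood the mitochondrial locus and those of ENSG00000214559 (1917 FPKM) and HSPE1P9 (1527). In senescent whole cells the mitochondrial locus and that of PSG9, CEACAMP10 and PSG4 (2281 FPKM) likewise stood above GREM1. Single transcripts in RTN4 (1448 FPKM) and ENSG00000251314 (1391) also stood above each GREM1 transcript.

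A few gene-locus transcripts were above 0 in several libraries at high levels. B2M, encoding the light chain of class I major histocompatibility molecules, had an assembled transcript at 879, 538, 418 and 617 FPKM in young whole cells, senescent whole cells, young mitoplasts and senescent mitoplasts. The values of this transcript lay within a narrow range, unlike those of the gene-free-locus class. IGFBP7-AS1, an antisense RNA of an insulin-like growth factor binding protein gene, was not listed in young whole cells and had 11.04, 149 and 1704 FPKM in the other 3. The locus of this transcript held no annotated gene in either mitoplast library, so its gene name comes from senescent whole cells. A transcript in the unnamed gene ENSG00000260608 had 1.20, 48.2, 193 and 1239 FPKM, each library above the one before. No annotated gene shared its locus in either mitoplast library, where its values recurred exactly in gene-free-locus transcripts. Its order across libraries was that of the gene-free-locus medians. The sources used here give no strand of the reads, so antisense and overlapping genes cannot be told apart.

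The mitochondrial genome contributed 2 members. ConsTrans_00378771 had 18676 FPKM in senescent whole cells, in a locus with 21 mitochondrial genes, and was not listed in the other 3 libraries. ConsTrans_00378772 had 48513 FPKM in senescent mitoplasts, in a locus with 26 mitochondrial genes, and was likewise listed there alone. Neither young library listed an assembled transcript in a locus of mitochondrial genes, and their mitochondrial mRNAs and rRNAs lay in annotated transcripts. Annotated FPKM of those genes summed to 177017 in young and 28342 in senescent whole cells, and to 643734 in young and 79832 in senescent mitoplasts. The senescent mitoplast locus also held 39538 FPKM of annotated transcripts of these genes. The annotated transcripts of the 12 listed mRNA and rRNA genes were at 0 in the senescent whole-cell locus. This 1 row held most of the gene-locus FPKM of senescent mitoplasts, where a single transcript reached 50% of it, against 102, 41 and 23 transcripts in young whole cells, senescent whole cells and young mitoplasts.

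Among gene-locus transcripts above 0 in both whole-cell libraries and at 10 FPKM or more in one of them (370 in loci with a named gene), the largest ratios toward senescence were in BRI3P1, a pseudogene, at 3.19 and 310.5 FPKM in young and senescent cells (log2 ratio 6.22), and in PTPRJ-AS1, an antisense RNA, at 0.425 and 40.01 (4.85). In senescent whole cells the locus of the BRI3P1 transcript held no annotated gene, so its gene name comes from another library. CCDC68, encoding a centriole protein, was at 0.464 and 20.7 (3.89), and P3H2, encoding a collagen prolyl hydroxylase, at 1.85 and 26.4 (3.26). At the low end CREB5, a transcription factor, was at 91.5 and 4.71 (−4.02), H2AZ1, encoding a histone variant, at 59.2 and 3.26 (−3.82), and TOP2A, the topoisomerase that untangles sister chromatids, at 12.5 and 0.69 FPKM. SDK1, encoding a cell adhesion protein, was at 132 and 10.8 (−3.50), and BGN, encoding the matrix proteoglycan biglycan, at 41.7 and 3.79 (−3.16). None of these 9 changed sign under the 3 rescalings.

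In mitoplasts 121 such transcripts were compared. LINC02763, a noncoding RNA, stood at 46.2 FPKM in senescent and 1.69 in young mitoplasts (4.14), and at 3.77 in young and 24.6 in senescent whole cells. NEAT1, the scaffold RNA of nuclear paraspeckles, had an assembled transcript at 0.715 in young and 14.7 in senescent mitoplasts (3.19). The whole-cell libraries did not list this row. They held other assembled NEAT1 signal, amounting to 44.3 FPKM (young) and 103 FPKM (senescent). Annotated transcripts of the NEAT1 locus went the other way between mitoplast libraries, from 2.67 FPKM (young) to 0 (senescent). DPP4, encoding a surface peptidase, was at 0.540 and 16.1 (3.47). A transcript in the locus of GLB1, the gene of lysosomal beta-galactosidase, and TMPPE was at 2.94 and 19.8 in young and senescent mitoplasts (2.40), and at 6.17 and 17.7 in whole cells. At the other end TMEM158, encoding a membrane protein induced by Ras, was at 140 and 5.33 (−4.48), and at 19.6 and 3.14 in whole cells. TAGLN2, an actin-binding protein, was at 33.6 and 2.57 (−3.27). None of these 6 changed sign under the 3 rescalings.

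Between fractions of young cells 255 such transcripts were compared. SF3B3, encoding a subunit of the splicing factor SF3b, was at 416 FPKM in mitoplasts and 1.22 in whole cells (7.56), and TUG1, a noncoding RNA, at 48.2 and 3.87 (3.34). In young mitoplasts the locus of the SF3B3 transcript held no annotated gene, so its gene name comes from another library. The TUG1 transcript did not share a locus with annotated TUG1 in young mitoplasts either, so its name also comes from another library. MRPL15, a subunit of the mitochondrial ribosome, was at 16.3 and 1.63 (2.72), MRPL3, another, at 38.9 and 5.69 (2.58), and NDUFV3, a subunit of complex I, at 19.9 and 3.42 (2.24). With an equal sum over all transcripts MRPL3 turned to −0.45 and NDUFV3 to −0.56. The low end held SDK1 at 7.40 FPKM in mitoplasts and 132 in whole cells (−3.99), BICC1, encoding an RNA-binding protein, at 5.80 and 83.0 (−3.63), and COL5A1, encoding a fibrillar collagen chain, at 6.69 and 58.6 (−2.95).

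Between fractions of senescent cells 102 were compared. IGFBP7-AS1, whose locus held no annotated gene in senescent mitoplasts, had the highest ratio (7.14). PID1, encoding an adaptor protein, had 48.4 FPKM in mitoplasts and 1.26 in whole cells (4.45). RBFOX1, a splicing regulator, was at 20.7 and 0.272 (4.09) and was at 22.5 in young mitoplasts. EHMT1, encoding a histone methyltransferase, was at 0.866 and 40.1 (−4.46), NLK, a kinase, at 4.48 and 111 (−4.35) and SEPTIN9, encoding a septin filament protein, at 7.39 and 77.6 (−3.23). NLK was also low in young mitoplasts, at 5.21 FPKM against 73.7 in young whole cells (−3.59). TP53INP2, an autophagy factor, was at 33.2 and 8.13 (1.91) and turned to −0.53 with an equal sum over all transcripts.

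Assembled transcripts in the loci of 11 gene lists were counted the same way. Of 20 in mitosis loci, 1 was higher and 18 were lower in senescent cells (median −1.97), beside 3206 higher and 3390 lower of 7830 gene-locus transcripts (median −0.09). Only 4 of the 20 were above 0 in both libraries, with 3 lower. CCNB2, encoding a mitotic cyclin, had 4.18 FPKM of assembled transcripts in young and 0.284 in senescent whole cells, and SPC25, a kinetochore protein, 6.19 and 1.12. The CENPA locus, named for the centromeric histone and shared with another gene, had 120 and 100.3. For DNA replication, 6 were higher and 8 lower of 19 (median −0.96), with POLD2, a DNA polymerase delta subunit, at 33.3 and 9.95 FPKM.

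The other lists went in both directions between the whole-cell libraries. Collagens and matrix proteins had 15 higher and 16 lower of 35 (median −0.24): SPARC, a secreted matrix protein, had 37.9 and 315 FPKM of assembled transcripts in young and senescent cells, and TIMP1, an inhibitor of matrix proteases, 507 and 332. Secreted factors of senescence had 7 higher and 10 lower of 19 (median −2.11), and the 2 above 0 in both had 0 and 0 (median 0.34). IGFBP5, an insulin-like growth factor binding protein, had 1524 and 266 FPKM, STC2 32.3 and 47.5 and PLAU, encoding urokinase, 49.0 and 34.8. Over all genes of this list, assembled transcripts summed to 1736 and 541 FPKM, whereas annotated ones summed to 2760 and 3602. Nuclear-encoded oxidative phosphorylation genes had 11 higher and 5 lower of 17 (median 1.74), of which 1 was above 0 in both libraries. ATP5F1B, the catalytic subunit of ATP synthase, had 40.5 and 75.7 FPKM. The assembled sum of that list was 106 and 214 FPKM, and the annotated sum 7211 and 5520. The p53, spliceosomal and mitochondrial genome lists also had assembled and annotated sums in opposite directions, and the remaining lists had them in the same one. Cytosolic ribosomal proteins had 4 higher and 6 lower of 11 (median −1.08), with RPS4X at 236 and 159. Actin cytoskeleton genes had 6 and 6 of 14 (median −0.02), p53 and cell cycle inhibitors 2 and 2 of 6 (median 0.51), and nuclear noncoding RNAs 6 and 8 of 14 (median −1.74). The spliceosomal list had 1 member, neither higher nor lower. Above 0 in both libraries were 7 replication, 6 matrix, 6 ribosomal, 3 actin, 4 p53 and 2 noncoding RNA transcripts, with 0 and 2, 0 and 2, 1 and 4, 0 and 1, 1 and 1, and 1 and 1 higher and lower, so the remaining counts restate presence.

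In mitoplasts of senescent against young cells most of the lists had more members lower than higher, as did gene-locus transcripts as a whole (1026 higher and 2684 lower of 3919, median −1.60). Cytosolic ribosomal proteins had 1 higher and 11 lower of 13, with RPL11 at 809 and 180 FPKM. Actin cytoskeleton genes had 5 and 11 of 16, mitosis 4 and 12 of 18 and p53 and cell cycle inhibitors 0 and 6 of 6. Most of these rest on absence from 1 library: above 0 in both, ribosomal proteins had 0 higher and 4 lower of 5, actin genes 0 and 2 of 2, mitosis 1 and 0 of 3 (median 0.32) and p53 and cell cycle inhibitors 0 and 1 of 1. Secreted factors of senescence had 5 higher and 3 lower of 11 (median 0.66), and the 3 above 0 in both libraries had 0 and 0 (median −0.13). MMP2, a matrix protease, had 21.8 and 41.8 FPKM of assembled transcripts, while the annotated transcripts of its locus were at 61.9 and 0. Between fractions of young cells the matrix list had 9 higher and 18 lower of 32 (median −2.72) and ribosomal proteins 7 higher and 2 lower of 14 (median 1.43), beside 1244 higher and 2263 lower of 6917 gene-locus transcripts (median −1.32). Between fractions of senescent cells the matrix list had 6 higher and 16 lower of 28 (median −2.90), beside 599 and 2427 of 5547 (median −1.80).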

How the data were processed

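RNA of 4 WI-38 libraries, 1 per group, was analysed from FPKM values per transcript, deposited by the authors. Tools and build, per the submitters' processing notes, were TopHat2 2.0.14 with Cufflinks 2.2.1 and Cuffdiff on hg19; annotation release, strand setting and depth are unstated in the sources used here. Counts are not part of the files, so no counting error can be given. Rows were joined on the transcript identifier in Python 3.11.15 with pandas 2.3.3 and numpy 2.4.6. A transcript counted as annotated if any library gave it an Ensembl identifier, and as in a gene locus if its locus held an annotated transcript in any library. Symbols came from GENCODE release 29 and a table of gene identifiers (94.1% of annotated transcripts matched). Ratios used a pseudocount of 1 FPKM and a filter of 1 FPKM in a library of the pair. The step of a library was found from its 3 commonest values; the step search and the calls were tested on simulated data. Named transcripts were the 10 highest of each library, in each comparison the 8 highest and 8 lowest ratios of gene-locus transcripts at 10 FPKM or more and above 0 in both libraries, the mitochondrial locus, list members with the most assembled FPKM, and the 8 with the highest lowest value over 4 libraries; a selection of each is printed, and some that the rule selects are left out here. The members and lists were chosen with earlier results of these data known. Alternatives were another pseudocount, other filters, 3 rescalings, other detection levels and leaving out libraries or top transcripts.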

Additional observations from a re-analysis of the deposited data

Results flagged for a closer look

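Several measures of assembled transcripts moved in opposite directions from young to senescent cells in the 2 fractions. With 1 library in each group, none of these differences was tested. The number of assembled transcripts above 0 was 12930 more in senescent than in young whole cells and changed by −23401 in mitoplasts. The number in loci without an annotated gene changed by 13187 in whole cells and by −21102 in mitoplasts. The median FPKM in loci with a gene changed by −0.0486 in whole cells and by 0.297 in mitoplasts. The share of assembled FPKM in the 10 highest transcripts changed by −11.8 percentage points in whole cells and by 5.02 in mitoplasts. The number of transcripts that hold 50% of assembled FPKM changed by 5837 in whole cells and by −634 in mitoplasts. ConsTrans_00206094, among the highest members present in all 4 libraries, had a log2 ratio of −1.49 in whole cells and 1.79 in mitoplasts, at 14044 and 4989 FPKM in young and senescent whole cells and 38363 and 132393 in young and senescent mitoplasts.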

How the results depend on the processing

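No paired analysis was possible because each group has 1 library and no result comes from a test. Of the alternative values computed, 97 stayed close to the reported one (counts within 1.5 times, shares within 1 percentage point and 1.5 times) and 49 moved further; the cause was not tested except where the alternative keeps fewer transcripts. Restricting to transcripts above 0 in both libraries left 6382 higher and 365 lower in whole cells with senescence, 330 and 120 in mitoplasts, 1853 and 44 between young fractions and 439 and 38 between senescent fractions. A filter of 10 FPKM gave 43992 higher and 18503 lower in whole cells with senescence. Between young fractions it gave 28445 higher and 18984 lower, which turned the reported split of 29325 higher and 40083 lower. Between senescent fractions it gave 7216 higher and 44496 lower. A pseudocount of 0.1 gave 74121 lower between young fractions. Within transcripts above 0 in both libraries the lower counts moved. In whole cells with senescence they were 645 with the pseudocount of 0.1, 159 with the filter of 10 FPKM and 1017 with an equal sum over all transcripts. In mitoplasts with senescence they were 69 with that filter, 29 with an equal sum over annotated transcripts, 54 over all transcripts and 51 by the median of ratios. Between young fractions they were 78 with the pseudocount, 78, 382 and 25 with those rescalings, and between senescent fractions 68 with the pseudocount, 117 over all transcripts and 10 by the median of ratios. Loci joined across libraries gave 625 present in every library. Leaving out each library in turn gave 119999 to 181870 members in a single library and 321 to 1734 in every remaining one, the highest without senescent mitoplasts; the lowest first count was without senescent whole cells, and 453 were in every library without young mitoplasts. The assembled share of FPKM was 43.8%, 71.7% and 90.8% in young whole cells, senescent whole cells and young mitoplasts without the 10 highest transcripts. It was 65.3%, 83.1%, 97.3% and 98.5% in the 4 libraries without loci of small RNA genes or the mitochondrial genome, and 48.9%, 67.4% and 90.7% in the first 3 without ladder members. Without the highest transcript, the 10 highest held 23.3%, 14.7%, 17.0% and 22.1%, and 3843 transcripts held 50% in young whole cells. Loci with a gene above 0 in the library held 0.970% of FPKM in senescent whole cells and 0.118% in young mitoplasts, and without its highest transcript the gene-locus sum of senescent mitoplasts was 19133 FPKM. Of 24 named ratios per comparison, 9 changed sign between young fractions with an equal sum over all transcripts and at most 4 in any other comparison and rescaling. Alternatives without ladder members, with libraries or the highest gene-locus transcript left out, and within transcripts above 0 in both were chosen after seeing the data. Depth is unknown, so absence from a library is not absence of the RNA.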
